A study of Mus musculus with 2 samples.

Results

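Translation factors and aminoacyl-tRNA synthetases were compared between pooled injured kidneys from wild-type mice and from mice that lack estrogen sulfotransferase. The members are the genes named by the symbols of the initiation factors (Eif followed by a digit), the elongation factors (Eef followed by a digit) and the tRNA synthetases (a one-letter amino acid code followed by ars, with Eprs, Farsa and Farsb). Of 45101 probe sets on the array, 34958 were annotated with 1 gene symbol, and 227 of these, for 93 genes, were members. A gene with several probe sets took the value of the one whose mean over both arrays was highest, and 70 of the 93 members lay above background in at least 1 pool, against 7480 of 18194 genes on the array.

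The WT AKI group was a pool of kidney tissue (180 mg) from 3 male C57BL/6 mice, and the EST KO AKI group a pool (124 mg) from 6 male C57BL/6 EST KO mice. The protocol, which is the same for both pools, gives an age of 8 weeks and names it for C57BL/6 (WT) mice. EST stands for estrogen sulfotransferase, an enzyme encoded by Sult1e1 that inactivates estrogens by adding sulfate, and AKI is acute kidney injury. Mice of both groups had 30 min of warm bilateral ischemia and were killed 24 h later, so both groups are injured and neither gives a level for uninjured kidney. Each pool was read on 1 array, so the spread between mice is unknown, no test between genotypes was possible, and having 1 array per genotype limits how precise any value is. Higher and lower below describe these 2 pools. In whole tissue, fewer cells of a type and less RNA per cell cannot be told apart.

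Translation starts when the eIF4 factors bring a capped mRNA to the small ribosomal subunit, which carries eIF3 and the initiator tRNA held by eIF2. Elongation factors then deliver charged tRNAs and move the ribosome, and the synthetases attach each amino acid to its tRNA. Stress kinases phosphorylate eIF2, which slows initiation and favours translation of the transcription factor ATF4, and several synthetase genes are known ATF4 targets. The kinase mTORC1 restrains the eIF4E-binding proteins and so favours cap-dependent translation. Tubule cells of the kidney are known to lower protein synthesis early after ischemia.

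Whole-array checks bear on what follows. Sult1e1 read 472.7 in WT and 17.2 in EST KO, both below background (676.1 and 638.3), so it does not check the genotype label. One label gives liver as the tissue of the EST KO pool, while the others give kidney. Of 10 hepatocyte genes 8, albumin (Alb, 487.9 and 522.3) among them, lay below background in both pools, Apob was higher in WT (778.6 and 475.1), and Ttr, transthyretin, was 6.97-fold higher in EST KO (1716 and 11957), so that the summed intensity of the list was 4448 in WT and 14250.2 in EST KO. Relative to WT, all 14 measured proximal tubule genes were higher in EST KO (median log2 ratio 0.77, summed intensity 109969 and 178901 over the list), and 13 of 14 injury genes were lower (median −0.97, 164795 and 95302). All 8 measured endothelial genes were lower (median −0.29, 11878 and 8906), as were 6 of 7 macrophage genes (median −0.34, 14633 and 9492) and all 3 measured neutrophil genes (median −0.51, 5571 and 3396.5). No gene of these lists was at 0. Their part in the results on translation genes was not tested. As a sign of RNA quality, the 3′ over 5′ control ratio was 1.35 in WT and 1.28 in EST KO for actin, and 0.88 and 0.84 for GAPDH.

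The translation genes as a set differed little between the pools. No measured member was 2-fold apart in either direction, while among all measured genes 3.02% reached 2-fold higher in EST KO and 1.4% reached 2-fold lower. At 1.5-fold, 1 of 70 measured members was higher (1.43%, against 8.46% of all measured genes) and 5 were lower (7.14%, against 7.43%). The share that was lower lay near that of all genes, and the 1 member that was higher, Qars, depended on which probe set was read. By any size, 26 members were higher, 42 were lower and 2 had no order, against 43.6% of all measured genes higher and 54.6% lower. The median log2 ratio was −0.073 over members and −0.055 over all measured genes. Here and below a log2 ratio is EST KO minus WT, with values below background held at background.

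**Figure D1:**
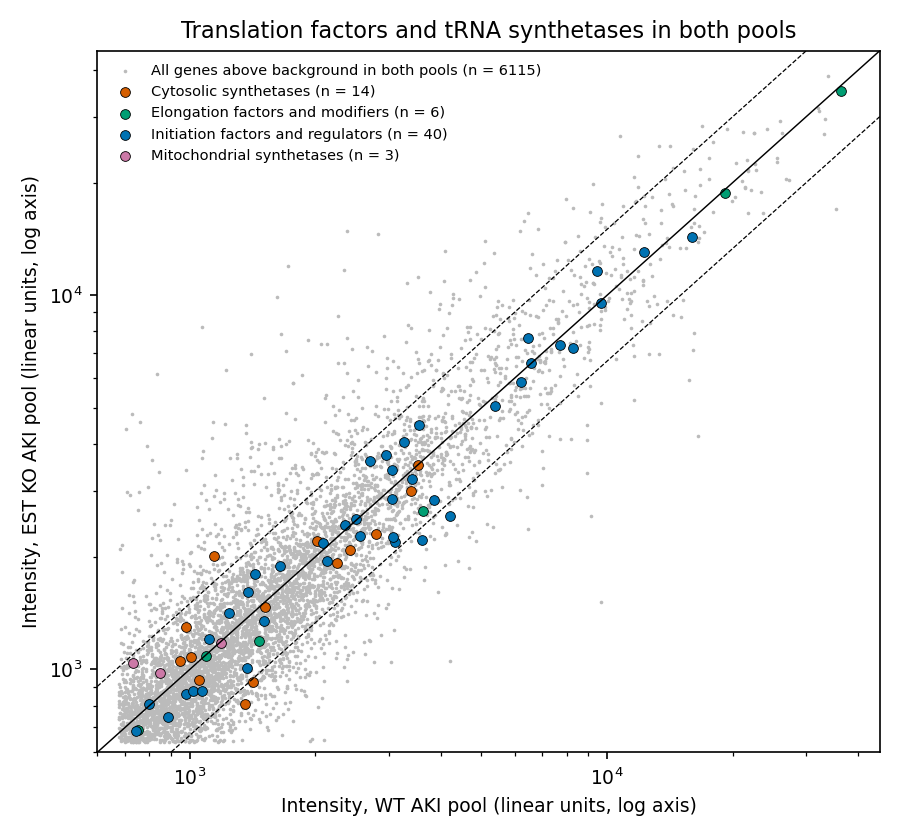
Intensity of each gene above background in both pools, with the WT AKI pool on the horizontal and the EST KO AKI pool on the vertical axis, both logarithmic. Grey points are all 6115 such genes, coloured points are the 63 members among them, the solid line marks equality and dashed lines 1.5-fold, and 5 members lie outside the dashed lines.

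Differences between pools were smaller for members than for all genes at the upper end of the intensity range. Among genes above background in both pools with a mean intensity above 2000, 22 of 36 members (61.1%) had a log2 ratio smaller in size than 0.21, against 39.5% of 1859 genes. The interquartile range of the log2 ratio was 0.27 in these members and 0.59 in these genes. Up to a mean intensity of 2000, 15 of 27 members (55.6%) were below that size, against 47.3% of 4256 genes. The width of 0.21 is the median difference between probe sets of a gene, and these shares are descriptions of 2 arrays, with no test.

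**Figure D2:**
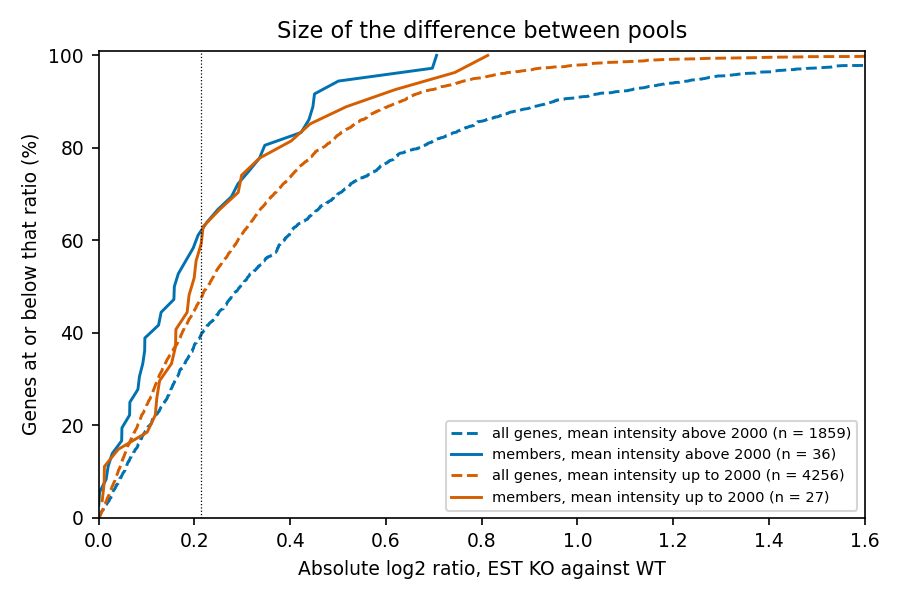
Share of genes (vertical axis, %) whose absolute log2 ratio between pools is at or below the value on the horizontal axis. Solid lines are members and dashed lines all genes above background in both pools, split at a mean intensity of 2000, and the dotted line marks 0.21, where the solid lines stand at 61.1% and 55.6% and the dashed lines at 39.5% and 47.3%.

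With no replicate arrays, the measurable error is the disagreement among a gene's own probe sets. In 1663 genes at least 2 probe sets passed background in each pool, and the log2 ratios of their 2 most intense ones differed by a median of 0.21, and by up to 0.81 in 95% of genes. A log2 ratio of 0.58, which is 1.5-fold, is therefore within what probe sets of the same gene can differ by. Of 31 members with several such probe sets, 14 had probe sets on both sides of 0 (Eif1ad, Eif2s2, Eif2s3x, Eif3c, Eif4a1, Eif4b, Eif4e, Eif4g2, Eif4h, Eif5, Eif5a, Eif5b, Qars and Sars) and 17 had all of them on 1 side. For those 14, higher or lower below refers to the probe set used.

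An order by position in the complex was seen among the subunits of eIF3, the scaffold that holds the small subunit ready for the mRNA. All 11 subunit genes read here were above background in both pools, 7 were higher and 4 lower in the EST KO pool, and the median log2 ratio was 0.065, with a sign that turned under quantile normalization (−0.0077) and when probe sets marked as able to read several transcripts were left out (−0.17). Subunits of the core, the octamer built on PCI and MPN domains, were mostly higher. Of 4 listed peripheral subunits that attach to the core, the 3 read here were lower, and Eif3g is not among the members. This division was made after the values were seen, so it is a description.

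Core subunits stood a little above equality. Eif3h read 2696 in WT and 3614 in EST KO, a 1.34-fold higher value. Eif3e read 3534 and 4495, Eif3a, the largest subunit, 2959 and 3735, and Eif3f 3266 and 4061, with log2 ratios of 0.35, 0.34 and 0.31. All 4 lay higher in the EST KO pool. Eif3m (1243 and 1416, 0.19) was on the same side, Eif3k (0.065) and Eif3c (0.016) lay close to 0 and turned sign under quantile normalization, Eif3c in 3 other settings as well, and Eif3l was lower (2553 and 2275, −0.17). The core median was 0.25, and 12 of its 15 probe sets above background in both pools were higher.

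Peripheral subunits stood below equality. Eif3d, a subunit known to bind the cap of some mRNAs, read 3602 in WT and 2222 in EST KO and was 1.62-fold lower. Eif3b, the scaffold of the peripheral module, read 3847 and 2837 (1.36-fold lower), and Eif3i, its WD-repeat partner, 8272 and 7214 (1.15-fold lower). The median of the 3 was −0.44, and all 4 of their probe sets above background in both pools were lower. Under the 10 alternative settings, 1 of which leaves 4 of the 8 core genes, the core median ran from 0.17 to 0.31 and the peripheral median from −0.60 to −0.38. The peripheral median was the value of Eif3b, which has 1 probe set. As the division was made with these values seen, the ranges and the counts of probe sets do not test it. Apart from Eif3d, the single differences lie under 1.5-fold.

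**Figure D3:**
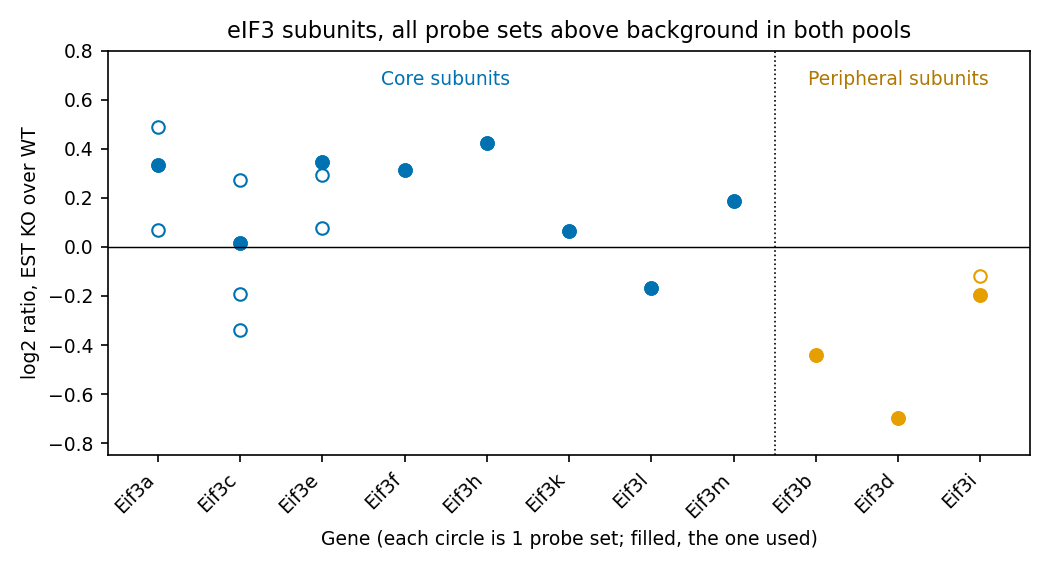
Log2 ratio (EST KO over WT, vertical axis) of every eIF3 probe set above background in both pools, by subunit gene. Filled circles are the probe sets used and open circles other probe sets of the gene, and 12 of 15 core probe sets lie above 0 while all 4 peripheral ones lie below it.

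Promoters of a lower and of a higher eIF3 subunit are shown for comparison, from RefSeq (GRCm38.p6, bases before the annotated start, 5′ to 3′ on the gene's strand). Capitals mark the ETS motif CCGGAAGT (either strand) in Eif3d, chr15:77970842-77970941 (- strand), and the E-box CACGTG in Eif3f, chr7:108934301-108934398 (+ strand).
Eif3d: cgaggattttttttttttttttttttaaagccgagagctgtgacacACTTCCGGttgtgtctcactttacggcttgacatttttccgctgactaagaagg
Eif3f: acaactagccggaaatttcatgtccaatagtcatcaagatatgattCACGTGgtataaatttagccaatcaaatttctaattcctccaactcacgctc
In the 250 bases before the start, the ETS motif was present in 7 of 73 members with a promoter sequence (9.59%) and in 4.26% of 17491 protein-coding genes. The E-box was present in 14 members (19.2%) and in 7.61% of genes. The stretch printed for each gene held no match to another of the 3 motifs searched here and below, except that of Aars, which also held an E-box apart from its own motif. Measured members with an E-box had a median log2 ratio of 0.092, 7 higher and 4 lower. Those with the ETS motif had a median of −0.15, 1 higher and 3 lower, and Eif5a counts in both groups. Among all measured genes 43.6% were higher and 54.6% lower. Of the members with an E-box, Eif4a1, Eif4e, Eif4h and Eif5a had probe sets on both sides of 0. Whether a motif goes with a direction was not tested. A match is a description of these letters, not a bound site.

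At the probe sets used, cap-binding and helicase factors had no log2 ratio beyond 0.29 in size, but other probe sets above background ran from −0.63 to 0.47. All 9 were measured, 3 higher and 6 lower, with a median of −0.096 that turned sign with the mean (0.027) or median (0.051) of probe sets. Eif4e, which binds the cap, read 3059 in WT and 3413 in EST KO (log2 ratio 0.16). Eif4a2, an RNA helicase, read 6453 and 7668 (0.25). Its paralog Eif4a1 read 9457 and 11570.0 (0.29), but another of its probe sets read 4535 and 3697 (−0.29) and the remaining one lay at 0.051, so Eif4a1 has no settled direction. Eif4g2, a relative of the scaffold eIF4G that lacks the cap-binding partner site, read 15996 and 14346 (−0.16), and its 2 other probe sets above background were higher in the EST KO pool (0.10 and 0.38). Eif4e3, a cap-binding relative of eIF4E, read 979.9 and 862.1 (−0.18). The helicase partner Eif4b was at −0.096, with other probe sets at 0.22 and 0.47, and Eif4h at −0.065, with others from −0.57 to 0.053. The scaffold gene Eif4g3 was lower at all 3 of its probe sets above background (−0.097, −0.47 and −0.63), and Eif4e2 was at −0.13.

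The genes that bind and restrain eIF4E lay on both sides of equality, 1 higher and 2 lower (median −0.44). Eif4ebp1, which encodes 4E-BP1, read 4196 in WT and 2573 in EST KO, 1.63-fold lower, and its other probe set above background was lower too (2987 and 2143, log2 −0.48). Eif4ebp2, which encodes 4E-BP2, read 1429 and 1804, 1.26-fold higher, and its 2 other probe sets above background were at 0.31 and 0.0021. Eif4enif1, which carries eIF4E into the nucleus and to P-bodies, read 1370.4 and 1009 and was 1.36-fold lower. Without probe sets that can read several transcripts, Eif4ebp1 came to −0.48, under 1.5-fold.

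At the probe sets used, the measured subunits of the initiator tRNA carrier eIF2 stood near equality. Those of its exchange factor eIF2B lay on both sides of equality. The alpha subunit of eIF2, which the stress kinases phosphorylate, is not among the members. Eif2s2, the beta subunit, read 6571 in WT and 6579.8 in EST KO, although its 5 probe sets above background ran from −0.45 to 0.55. Eif2s3x, the gamma subunit from the X chromosome, read 3409.8 and 3221 (log2 ratio −0.082), and its Y-linked copy Eif2s3y (532.0 and 489.7) lay below background in both pools. Of the eIF2B subunits, the catalytic Eif2b5 (1069 and 873.3, −0.29), Eif2b3 (1017 and 876.6, −0.21) and Eif2b4 (743.0 and 683.0, −0.12) were lower. Each was read at its only probe set above background, and Eif2b4 lay close to background (676.1 and 638.3). Eif2b2 (2351 and 2431) lay at 0.049 and at 0.16 and 0.14 at its other probe sets, all higher in EST KO. Eif2a and Eif2b1 lay below background in both pools, as did Eif4a3, the helicase of the exon junction complex. Eif2d, a factor that can deliver tRNA without eIF2 and acts in ribosome recycling, read 3104 and 2194 and was 1.41-fold lower, but its other 5 probe sets lay below background in both pools. This group of 7 measured genes had 2 higher and 5 lower members (median −0.12). Under quantile normalization all 7 were lower (median −0.19).

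The kinases that phosphorylate eIF2 were measured for 2 of 4 genes. Eif2ak3, the endoplasmic reticulum stress kinase PERK, read 1112 in WT and 1207 in EST KO (log2 ratio 0.12). Eif2ak1, the heme-regulated kinase HRI, read 1503 and 1345 (−0.16). Eif2ak4, the amino acid sensor GCN2 (217.8 and 205.2), and Eif2ak2, the double-stranded RNA sensor PKR (402.9 and 406.1), lay below background in both pools. The measured kinases thus differed by less than the median probe-set difference of 0.21.

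Factors of start codon choice and subunit joining had 3 members higher and 4 lower of 7 measured (median −0.020). Eif1ax, which with eIF1 opens the small subunit for scanning, read 3076 in WT and 2256 in EST KO and was 1.36-fold lower. Its close relative Eif1a read 1648 and 1892 and was 1.15-fold higher, and the probe sets of such near-identical genes cannot be taken to read 1 gene alone. Eif1b, a copy of the start codon factor eIF1, read 889.1 and 746.3 (1.19-fold lower). Eif1ad (1382 and 1607) had a log2 ratio of 0.22 at this probe set and −0.71 at its other one, so it has no settled direction. Eif5, which triggers GTP hydrolysis by eIF2, read 9682 and 9550.0 (−0.020), with other probe sets from −0.19 to 0.37. Eif5b, which joins the subunits (0.012), and Eif6, which keeps the large subunit free (−0.085), lay close to 0. Eif5a, the hypusine-bearing factor that eases peptide bond formation at difficult sequences, read 12224 and 13030.3 (0.092, below 0 once quantile normalized or with the trend removed), and its paralog Eif5a2 lay below background in both pools.

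Eef1a1, Eef2 and Eef1a2 read almost the same in both pools, while the exchange factor subunits Eef1b2 and Eef1d were lower in the EST KO pool. The subunit gene Eef1g is not among the members. Eef1a1, the GTPase that brings charged tRNA to the ribosome, read 36351 in WT and 35160.4 in EST KO, close to the highest values of the arrays (39386 and 38640.4), and whether the signal is still proportional there was not tested. Eef2, the GTPase that moves the ribosome along, read 19131 and 18760.3, and Eef1a2, the form of eEF1A known from muscle and neurons, 1095 and 1087. Their log2 ratios were −0.048, −0.028 and −0.011. By symbol the group has 6 measured genes, all lower as read here, though Eef1a1, Eef1a2 and Eef2 turned higher with centring, Eef1a1 and Eef1a2 with quantile normalization and Eef1a2 with the trend removed. The group had a median of −0.17, or −0.048 over those above background in both pools, which leaves out Eef1e1. All 8 muscle and all 8 neuron markers lay below background in both pools.

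The exchange complex eEF1B reloads eEF1A with GTP. Its subunit Eef1b2 read 3624 in WT and 2651 in EST KO and was 1.37-fold lower. Its subunit Eef1d read 1466 and 1192, 1.23-fold lower, and all 3 probe sets of the pair above background were lower. The median of the pair, which was grouped after its values were seen, ran from −0.44 to −0.30 under 9 alternatives. Neither gene was measured in the remaining alternative, which leaves out probe sets marked as able to read several transcripts. Of the genes that modify elongation factors, only the methyltransferase gene Eef1akmt1 was measured (752.5 and 689.0, −0.13). The other 4, the eEF2 kinase gene Eef2k included (442.9 and 438.7), lay below background in both pools.

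Several of these genes are known for a pyrimidine tract at the start of their mRNA, which puts their translation under mTORC1. Of 8 such genes measured, 3 were higher (Eif3e, Eif3f and Eif3h) and 5 lower (Eef1a1, Eef1b2, Eef1d, Eef2 and, at the probe set used, Eif4b). Of their 13 probe sets above background in both pools, 7 were higher and 6 lower (median 0.078). Over genes the median log2 ratio was −0.038, and −0.19 with the trend removed. It turned sign with centring (0.017), the mean of probe sets (0.027) and the median of probe sets (0.098).

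**Figure D4:**
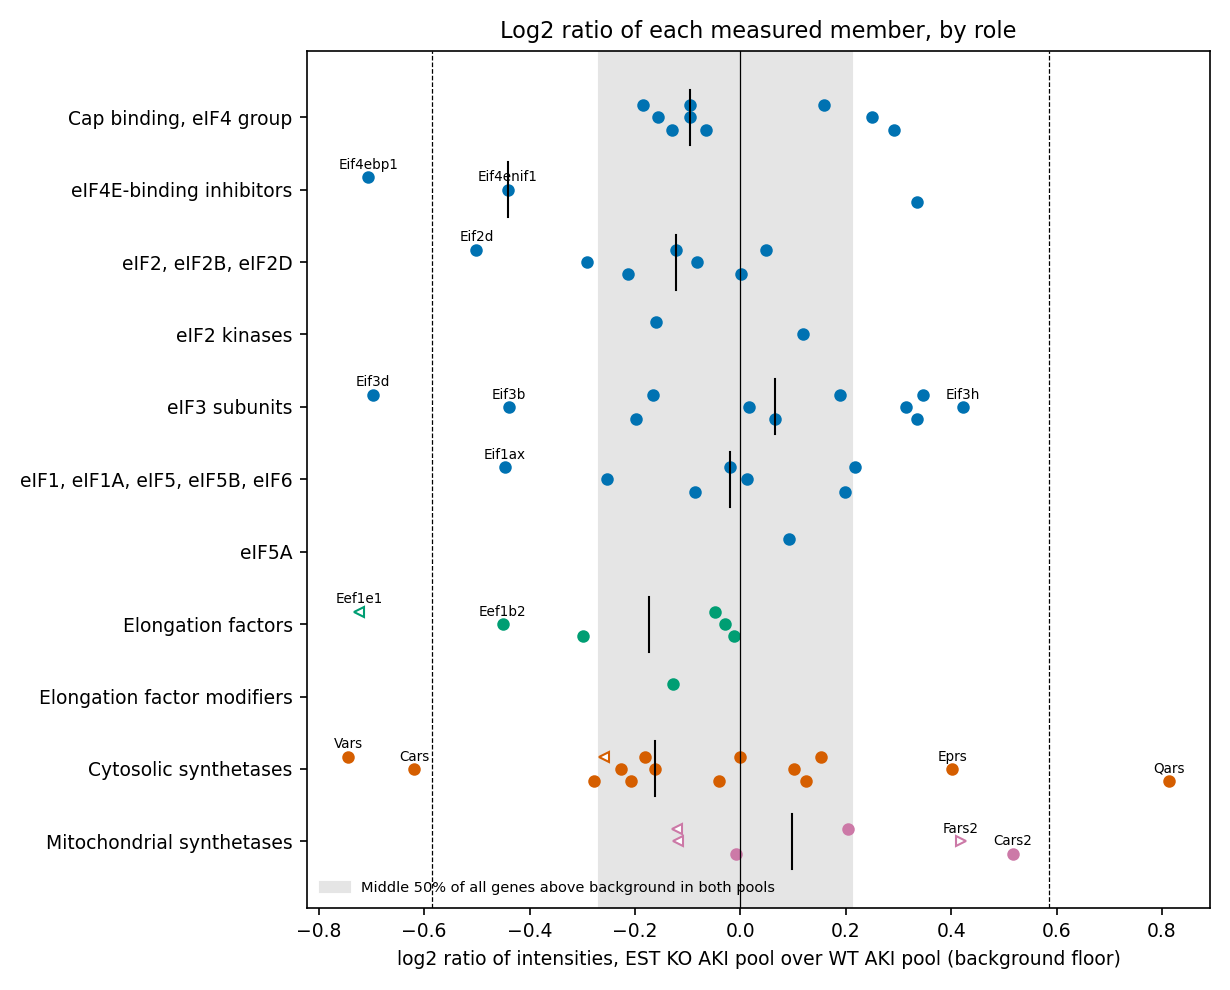
Log2 ratio (EST KO over WT, horizontal axis) of each measured member that has an order, by role. Filled circles lie above background in both pools, open triangles are bounds for members above it in 1 pool, black bars are group medians (groups of 3 or more), grey is the middle 50% of all genes above background in both pools, and 6 members lie beyond the dashed lines at 1.5-fold.

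Cytosolic tRNA synthetases lay on both sides of equality, with a median whose distance from that of all genes depended on the settings. Of 19 genes 17 were measured, 5 higher, 10 lower and 2 without an order, against 43.6% of all measured genes higher and 54.6% lower. The median log2 ratio was −0.16 and ran from −0.18 to −0.031 under the alternative settings. With no floor, which gives Hars and Tars an order, it was −0.041, against −0.048 for all measured genes. The valine enzyme Vars read 1355 in WT and 809.2 in EST KO and was 1.67-fold lower, and with a pseudocount in place of the background floor its log2 ratio was −0.50. The cysteine enzyme Cars read 1418 and 923.2, 1.54-fold lower, and with the mean of its probe sets, the other of which lay below background, −0.18. These and Qars were the synthetases at least 1.5-fold apart.

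The glutamine enzyme Qars had no settled direction. At the probe set with the highest mean it read 1142 in WT and 2006 in EST KO, 1.76-fold higher. Its 2 other probe sets above background read 1559.7 and 1349 (log2 −0.21) and 1487 and 1185 (−0.33). The enzyme for glutamate and proline, Eprs, read 981.6 and 1297 (1.32-fold higher), and its second probe set above background was at 0.53, though the mean of all its probe sets came to 0.13. The glycine enzyme Gars read 3517.4 and 3516.9, the closest pair of values among the synthetases.

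The other cytosolic synthetases above background in both pools had log2 ratios between −0.28 and 0.15 at the probe sets used. Wars (2787 and 2299, −0.28), Iars (2254 and 1927, −0.23), Nars (2414 and 2091, −0.21) and Kars (1050.5 and 939.4, −0.16) were lower, and Lars (763.9 and 619.6) was at least 1.20-fold lower. Sars read 3398 and 2996 (−0.18) at the probe set used and 1133 and 1382 (0.29) at its other one, so it has no settled direction. Aars (2020.4 and 2203, 0.13, and 0.59 at its other probe set), Yars (949.8 and 1055, 0.15) and Farsb (1009 and 1082, 0.10) were higher, and Rars was at −0.041. These enzymes serve tryptophan, isoleucine, asparagine, lysine, leucine, serine, alanine, tyrosine, phenylalanine and arginine. Hars (430.9 and 643.6) and Tars (617.7 and 639.1) lay above background in the EST KO pool alone, with no order, and Farsa and Mars1 in neither pool.

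**Figure D5:**
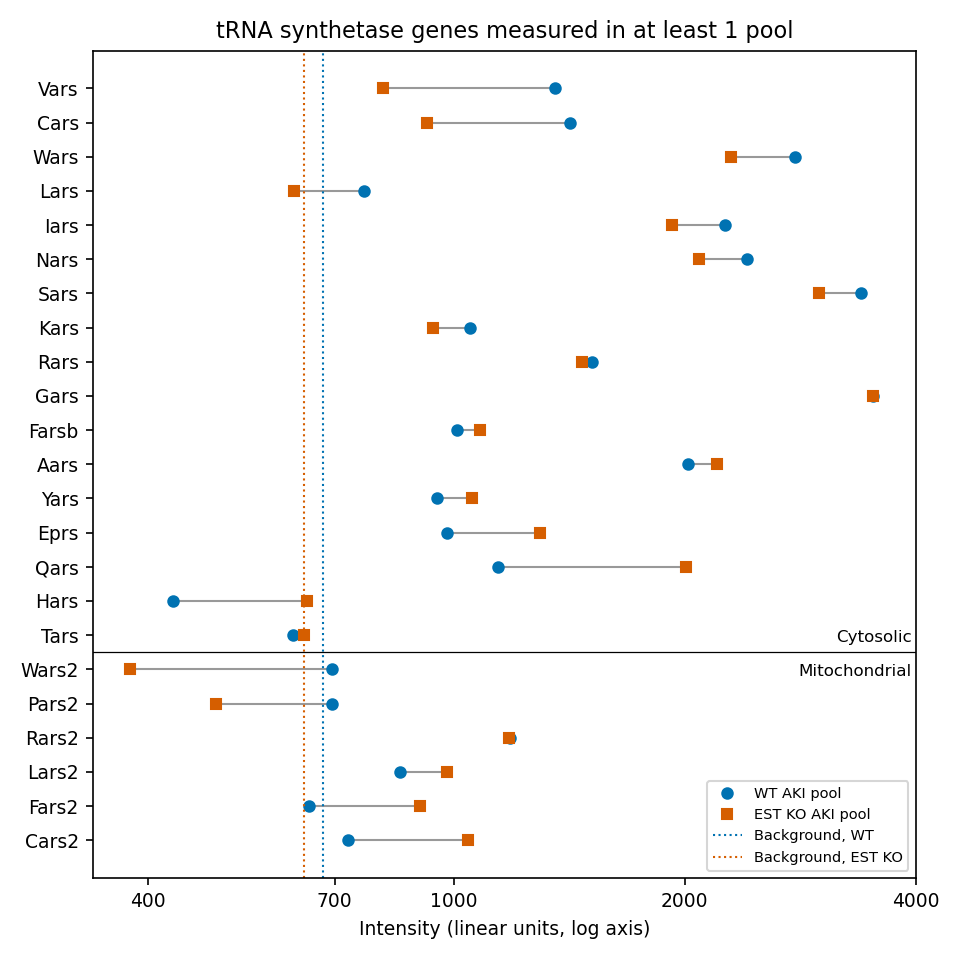
Intensity (horizontal axis, logarithmic) of each synthetase gene above background in at least 1 pool, WT AKI as circles and EST KO AKI as squares, with dotted lines at the background of each array (676.1 and 638.3). Vars, Cars and Qars have the widest gaps among cytosolic enzymes above background in both pools, and the points of Gars and Rars2 overlap.

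Part of the synthetases sit in a complex with 3 scaffold proteins, whose genes were all lower in EST KO. Eef1e1, which despite its symbol encodes the scaffold AIMP3, read 1053.5 in WT and 556.0 in EST KO, below background, and was at least 1.65-fold lower. The scaffold genes Aimp2 (1901 and 1494, 1.27-fold lower) and Aimp1 (774.8 and 599.0, at least 1.21-fold lower) are not members by symbol. Eef1e1 and Aimp1 passed background in WT alone, so in this reading they could only be lower or without an order, and Aimp2 is the 1 scaffold gene above background in both pools. The 3 were grouped after their values were seen. Over the genes of the complex measured here, scaffolds included, 2 of 9 were higher (Eprs, and Qars at the probe set used) and 7 lower. Their median was −0.23. Dars, the aspartate enzyme gene, is not among the members, and Mars1 lay below background in both pools. Without the 3 genes above background in WT alone (Lars, Aimp1 and Eef1e1), 2 of 6 were higher and 4 lower, and the median was −0.10.

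Mitochondrial synthetases were mostly too dim to read. Of 16 genes 10 lay below background in both pools, 3 of the measured ones were higher and 3 lower, and the median of 0.098 turned sign with the 75th percentile background (−0.054) and 2 other settings. Cars2, for cysteine, read 729.1 in WT and 1043 in EST KO (1.43-fold higher), Lars2, for leucine, 850.5 and 979.3 (1.15-fold higher), and Fars2, for phenylalanine, 648.4 and 903.6 (at least 1.34-fold higher). Rars2, for arginine, read 1185 and 1179. Wars2, for tryptophan, read 694.1 and 379.2, at least 1.09-fold lower with the floor and −0.87 on the log2 scale without it. Pars2, for proline, read 693.2 and 489.8, at least 1.09-fold lower. Both folds are small because the floor lies close to the WT value.

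Synthetases known as ATF4 targets were set beside the ATF4 response. Of 11 measured, 3 were higher, 7 lower and 1 without an order, with a median of −0.19 (−0.11 with the mean and −0.0002 with the median of probe sets). Atf4 itself read 4051 in WT and 5615 in EST KO (1.39-fold higher). Of 23 measured genes of the ATF4 list, 14 were higher (3 of them by 1.5-fold or more) and 9 lower (2 by that much), and the median was 0.051, from 0.029 to 0.16 under the alternatives. Shmt2, a mitochondrial serine and glycine enzyme, read 1157 and 3015 (2.61-fold higher, log2 0.74 with the mean of probe sets), and Cth, which makes cysteine, 1151 and 2450.4 (2.13-fold higher). Psat1, of serine synthesis, read 1301 and 2178.5 (1.68-fold higher), and 1413 and 1825 (log2 0.37, under 1.5-fold) at its other probe set above background. Nupr1, a stress-induced nuclear protein, read 2729.6 and 252.5 (at least 4.28-fold lower), Phgdh, the first enzyme of serine synthesis, 3878 and 2580.1 (log2 ratio −0.59), and Asns, asparagine synthetase, 1797 and 2181 (1.21-fold higher).

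The letters of an ATF4 response element were searched in the same RefSeq promoters, because ATF4 is the known regulator of these synthetases. The motif TGATGNAA, on either strand, was present in 5 of 73 members (6.85%) and in 3.64% of 17491 genes. The members were Aars, Gars, Tars, Eif2s3x and Eef2k, and the 3 that were measured with an order had a median log2 ratio of −0.00020. The stretches around the motif (capitals, here read on the other strand) are shown for the 3 synthetases, at chr8:111033684-111033783 (+ strand), chr6:55037925-55038000 (+ strand) and chr15:11399659-11399719 (- strand).
Aars: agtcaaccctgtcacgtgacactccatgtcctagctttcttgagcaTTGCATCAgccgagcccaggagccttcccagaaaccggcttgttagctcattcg
Gars: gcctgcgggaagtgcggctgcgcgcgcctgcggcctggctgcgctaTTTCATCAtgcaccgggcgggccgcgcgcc
Tars: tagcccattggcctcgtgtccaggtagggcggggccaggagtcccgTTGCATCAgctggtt
With these letters in their promoters, Aars was 1.09-fold higher at the probe set used and 1.51-fold higher at its other one (857.1 and 1293.7). Gars differed by under 1 intensity unit, and Tars lay below background in WT and just above it in EST KO.

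Neighbouring steps of translation were read from lists of other genes. Among all measured genes 43.6% were higher in EST KO. Termination and recycling genes were higher for 6 of 7 measured, with none 1.5-fold apart and a median of 0.076. Without probe sets marked as able to read several transcripts, 3 of them were higher and 2 lower. Etf1 and Gspt1 (0.022) also had a probe set below 0 (−0.12 and −0.16). The higher genes were led by Hbs1l, a ribosome rescue GTPase (1101 and 1501), the release factor Etf1 (2251 and 2928, though 0.059 on the log2 scale with the mean of probe sets) and Mcts1, a recycling factor (812.3 and 995.6). Poly(A)-binding and related genes were higher for 5 of 7, with a median of 0.032 whose sign turned with quantile normalization or removal of the trend, and they included Larp4 (1437 and 2055), Pabpc4 (1387 and 1831) and the deadenylase adaptor Pan3 (746.8 and 643.3). All 6 measured genes of the eIF2 phosphatase list were higher at the probe sets used, with a median of 0.13. With quantile normalization, the trend removed or the median of probe sets, 5 of 6 were higher, and with the mean 4 of 6. Ppp1cc (0.040) was at −0.28 at its other probe set above background. In that list Dnajc3, an inhibitor of the eIF2 kinases, was 1.70-fold higher (1061 and 1799, log2 0.30 with the mean of probe sets), and the phosphatase subunits Ppp1ca (0.18) and Ppp1cb (0.13) followed.

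Genes of the mTORC1 pathway were higher for 7 of 12 measured, 2 of them at least 1.5-fold, and none was 1.5-fold lower (median 0.078, from 0.018 to 0.13 under the alternatives). Among all measured genes 43.6% were higher, 8.46% by 1.5-fold or more, and 7.43% were lower by that much. The list was not split into genes that promote and genes that restrain mTORC1, so its counts give no direction for the pathway. Mtor, the kinase, read 956.2 in WT and 1808 in EST KO (1.89-fold higher), and 1078 and 1171 (log2 0.12) at its other probe set above background. With the median of probe sets, Mtor was at 0.52. Its activator Rheb read 3640.4 and 6293 (1.73-fold higher), and Rragc, an amino acid sensing GTPase, 2580.4 and 3463 (1.34-fold higher). The other higher genes were Lamtor2 (a bound of 0.42), Akt1s1 (0.18), Tsc2 (0.098) and Castor1 (0.058). The 5 lower genes were Lamtor3 (−0.23), Rptor (−0.18), Lamtor1 (−0.15), Deptor (−0.12) and Rps6 (−0.082). Mitochondrial translation factors had 2 of 4 higher, with the elongation factor Tufm (991.2 and 1476, 1.49-fold higher), Lrpprc (0.35) and the recycling factor Mrrf (−0.11). Of the genes that modify eIF5A and eEF2, Dhps, which makes hypusine (1809 and 1817), and Dph6, of diphthamide synthesis (735.5 and 762.3), were measured. Among other genes of tRNA charging 2 of 8 were higher and 6 lower (median −0.28, and −0.17 with the trend removed). In that list 4 genes (Aarsd1, Aimp1, Pstk and Ptrhd1) passed background in 1 pool alone, and the 4 others had 1 higher and 3 lower, with a median of −0.18. The list held Aarsd1, an editing enzyme, at least 1.58-fold higher (668.9 and 1068), Pstk, a selenocysteine tRNA kinase, at least 1.30-fold lower (827.3 and 542.3), and the amidotransferase subunit Gatc 1.27-fold lower (1106 and 868.9).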

How the data were processed

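RNA was extracted with Trizol and biotinylated cRNA hybridised to an Affymetrix mouse array, per the labels' protocols, with 1 pool per array. The values are the authors' deposited intensities, linear, 1 per probe set. From the values, each array's mean without the lowest and highest 2% was 500.0. The probe summary method is not given in the sources used here, and the values were not rescaled.

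GEO's platform annotation gave the gene symbols (34958 probe sets with 1 symbol, 932 with several, 9211 with none), and these were updated through a RefSeq table of GRCm38.p6 (34754 matched). Background was the 95th percentile of 129 probe sets of olfactory, vomeronasal and taste receptor and keratin-associated genes. Values below it were held at it, so a fold against them is a bound, and values below background in 1 pool that left no direction had no order. Folds of 2 and 1.5 were counted, with no test. Promoters were searched over 250 bases. Calling steps were tested on simulated data. Python 3.11.15, pandas 2.3.3 and statsmodels 0.14.6 were used.

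Members, lists and settings were chosen with earlier results of these data known. Genes named are members at least 1.5-fold apart, the 4 largest ratios and the highest mean intensity of each role group, eIF2 subunits, Eef1a1, Eef2, Eif4ebp1, Eif2ak3 and Eif2ak4, and 3 genes per related list. The remaining members named, Atf4, Psat1, Phgdh, Asns, Aimp1, Aimp2, Ptrhd1, Alb, Apob and Ttr, and the divisions of eIF3, eEF1B and the scaffolds, were added after values were seen. So were the genes of the mTORC1 list other than Mtor, Rheb and Rragc. Alternatives were another background percentile, no floor, a pseudocount of 500, quantile normalization, centring, removal of the intensity trend (lowess), other readings of a gene's probe sets and a stricter filter. The median over probe sets, and the width of 0.21 used for shares of small differences, were added after values were seen.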

Additional observations from a re-analysis of the deposited data

How the results depend on the processing

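No member was 2-fold apart under any of the 10 alternatives. The number at least 1.5-fold higher was 2 of 70 with the trend removed (9.21% of all genes), 0 of 59 with the mean (9.52%) and 0 of 63 with the median of probe sets (8.21%). The number at least 1.5-fold lower was 2 of 70 with a pseudocount (3.90% of all genes) and 8 of 70 under quantile normalization (7.85%). The median of all members was −0.13 under quantile normalization, −0.018 with centring, and −0.12 when probe sets marked as able to read several transcripts were left out. The median of the cap-binding group was −0.20 under quantile normalization, 0.027 with the mean and 0.051 with the median of probe sets. Leaving out probe sets marked for several transcripts, the medians were −0.072 for the eIF4E inhibitors, −0.25 for eIF2 and eIF2B, −0.17 for eIF3, −0.038 for elongation factors and −0.063 for mitochondrial synthetases. The start site and joining group was at −0.20 under quantile normalization, −0.15 with the trend removed, and −0.14 and −0.19 with the mean and median of probe sets. Elongation factors were at −0.048 when only genes above background in both pools counted, and at the same value with the median of probe sets, both of which leave out Eef1e1. Cytosolic synthetases were at −0.041 with the 75th percentile background and with no floor, −0.031 with a pseudocount and −0.072 with the trend removed, and mitochondrial ones at −0.054 with the 75th percentile background and −0.063 with the mean of probe sets. Qars turned from 0.81 to −0.21 with the median of probe sets. The causes were not tested. The other 102 of these values and 797 of 832 values for single genes and further lists moved by less than the error between probe sets or, for counts, by no more than 1.5 times. That error was 0.28 for a single gene, the standard deviation of 1 probe set, and smaller for medians of several genes. A change of sign within it counted as no move for ratios under 1.5-fold. The other background percentile, no floor and the stricter filter cannot move a gene above background in both pools. The counts of unmoved values are therefore no measure of stability.

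No paired analysis was possible because each genotype has 1 array. Signal over background limits the mitochondrial synthetases, with 10 of 16 genes below it in both pools, and the elongation factor modifiers, with 4 of 5.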
